A study of Mus musculus with 8 samples.

Results

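Dentate granule cells (DGCs) are the principal neurons of the dentate gyrus, the first relay of the hippocampal circuit. Described here are 8 genes that vary from one DGC nucleus to the next. Arr3, Grp, Necab3 and Acvr1c belong to a group called module 7, and Fst, Ryr1, Rhbdl3 and Slc26a10 to a group called module 11. The 8 genes, of 24051 in the table of nuclei, were chosen by how their UMIs were distributed over the DGC nuclei of the same snRNAseq samples, where the modules occupied different nuclei. Their pattern of co-occurrence in DGC nuclei is therefore given below as a description, with no test. Levels in other cell types and in bulk RNAseq, and the comparison of genotypes, did not enter that choice as measures, although the snRNAseq samples are the same. Most of the DGC nuclei came from control mice, described below, so the choice could favour genes better seen in those mice. The comparison of genotypes in DGC nuclei is thus not independent of the choice.

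The study compared Wls fl/-;Gfap-Cre mice (mutant) with Wls fl/+;Gfap-Cre mice (control). Wls encodes a protein needed for Wnt secretion, and Gfap-Cre deletes the floxed Wls allele in a subset of neural progenitors, so that other cells keep a functional allele. Control and mutant mice alike carry Gfap-Cre and a floxed Wls allele, and controls keep a wild type Wls allele beside it. Each sample was both hippocampi of a single mouse of 12 weeks, labelled male. There were 2 mice per genotype for bulk RNAseq and 2 per genotype for snRNAseq, so p-values rest on 2 against 2 samples.

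The snRNAseq samples held 29425 nuclei with 26307081 to 76486132 UMIs per sample, and 8 to 21 cell barcodes were shared by any pair of samples. The deposited annotation labels 2336 and 2007 nuclei as GC in the control samples and 90 and 463 in the mutant samples, here called DGC nuclei. Control replicate 1, control replicate 2, mutant replicate 1 and mutant replicate 2 had median depths of 4628, 7688, 4242 and 7126 UMIs per DGC nucleus. The summed level of 6 known granule cell genes (Prox1, Dsp, Calb1, C1ql2, Plk5 and Htra4), in UMIs-per-million (UPM) of a cell type, was 500 to 547 in DGC nuclei of the 4 samples. The highest value in any other cell type was 265 UPM, in oligodendrocytes of control replicate 1. The 4 bulk libraries held 56002302 to 79576119 expected counts. Wls was at 13.2 and 13.03 counts-per-million (CPM) in the control libraries and 3.67 and 6.87 CPM in the mutant libraries. In bulk, replicate 2 of both genotypes had Xist at 518 and 230 CPM and Ddx3y at 0.34 and 0.35 CPM, against the label male, while replicate 1 had 1.05 and 1.44 CPM of Xist and 58.3 and 54.5 CPM of Ddx3y.

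The roles of the 8 genes differ. In module 7, Arr3 encodes cone arrestin, known from the shut-off of phototransduction in cone photoreceptors. Grp encodes gastrin-releasing peptide, a bombesin-like neuropeptide. Necab3 encodes an EF-hand calcium-binding protein. Acvr1c (ALK7) is a type I receptor for activin-related ligands, which signals through Smad2 and Smad3. In module 11, Fst encodes follistatin, a secreted protein that binds activins and keeps them from their receptors. Ryr1 is the calcium release channel known best from the sarcoplasmic reticulum of skeletal muscle. Rhbdl3 belongs to the rhomboid family of membrane proteins, and Slc26a10 to the Slc26 family of anion transporters. Activins are secreted dimers of the transforming growth factor beta family. They bring type I and type II receptors together, and the type I receptor phosphorylates Smad proteins that then act in the nucleus with Smad4. In the adult dentate gyrus activin A is known as a factor whose gene responds to neuronal activity. A receptor of the activin pathway and a secreted antagonist of that pathway thus stand in different modules.

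The start regions of 5 of the 8 genes were at hand from RefSeq (build GRCm38.p6), as windows of 300 bases from 250 bases before to 50 bases after an annotated start. The windows of Arr3, Acvr1c, Ryr1 and Slc26a10 are printed, 2 per module, because these were the members with a window for which DGCs ranked first or second among the cell types. Each runs 5′ to 3′ on the gene's own strand, with capitals marking a motif match. Windows of Arr3 (chrX:100605247-100605546, + strand), Acvr1c (chr2:58357709-58358008, - strand), Ryr1 (chr7:29125102-29125401, - strand) and Slc26a10 (chr10:127180533-127180832, - strand) follow.
Arr3: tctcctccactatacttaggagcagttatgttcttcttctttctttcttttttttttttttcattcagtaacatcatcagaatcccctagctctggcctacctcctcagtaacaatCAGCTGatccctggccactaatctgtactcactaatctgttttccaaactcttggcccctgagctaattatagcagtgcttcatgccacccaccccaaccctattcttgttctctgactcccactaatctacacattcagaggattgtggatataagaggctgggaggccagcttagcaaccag
Acvr1c: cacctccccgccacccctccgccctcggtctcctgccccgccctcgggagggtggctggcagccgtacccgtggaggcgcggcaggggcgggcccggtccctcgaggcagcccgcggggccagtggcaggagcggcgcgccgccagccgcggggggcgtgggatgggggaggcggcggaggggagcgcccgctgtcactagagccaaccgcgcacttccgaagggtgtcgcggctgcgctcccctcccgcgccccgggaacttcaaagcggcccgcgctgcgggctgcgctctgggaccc
Ryr1: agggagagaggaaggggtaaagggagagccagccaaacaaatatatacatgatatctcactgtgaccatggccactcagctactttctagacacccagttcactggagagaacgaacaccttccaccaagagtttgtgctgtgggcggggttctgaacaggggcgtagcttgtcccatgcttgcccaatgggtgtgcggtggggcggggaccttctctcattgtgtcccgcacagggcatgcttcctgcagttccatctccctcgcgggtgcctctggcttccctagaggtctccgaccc
Slc26a10: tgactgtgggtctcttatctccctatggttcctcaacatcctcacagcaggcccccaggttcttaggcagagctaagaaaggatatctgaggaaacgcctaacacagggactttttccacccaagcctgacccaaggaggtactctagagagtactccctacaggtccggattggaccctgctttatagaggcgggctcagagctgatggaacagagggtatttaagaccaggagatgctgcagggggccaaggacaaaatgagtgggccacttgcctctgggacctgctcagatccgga

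Windows for Necab3, and a further one for Acvr1c, were searched as well, and no entry was found for Grp, Fst and Rhbdl3. The 4 motifs searched, on both strands, were a TCF/LEF motif (CTTTGAT), the cyclic AMP response element (TGACGTCA), an E-box (CAGCTG) and a SMAD element (GTCTAGAC). Of the 7 windows of the 5 genes, 1 held a match, the E-box in the Arr3 window, and 16.3% of all 32851 windows hold that E-box. The TCF/LEF motif, the cyclic AMP response element and the SMAD element occur in 3.73%, 1.79% and 0.213% of all windows. The G and C content was 44.0% in the Arr3 window, 79.0% in the Acvr1c window printed, 56.7% for Ryr1 and 53.7% for Slc26a10, beside a median of 52.7% over all windows. An absent match says only that these letters are not in the window.

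In the control samples, DGC nuclei with a UMI of 1 module held UMIs of the other less often than their depth would give. For each pair of genes, an odds ratio was computed over the DGC nuclei of a sample, stratified into 5 classes of UMIs in the nucleus. A value below 1 means that the 2 genes were found in the same nucleus less often than their own frequencies give. All 16 pairs with 1 gene of each module lay below 1 in both control samples, and 15 and 14 of the 16 did with each nucleus thinned to 1500 UMIs (highest 1.007 and 1.19). Their median was 0.371 in control replicate 1 (range 0.136 to 0.611) and 0.414 in control replicate 2 (range 0.248 to 0.720). All 12 pairs within a module lay above 1 in both control samples, with medians of 2.31 and 2.59 and a lowest value of 1.54.

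**Figure D1:**
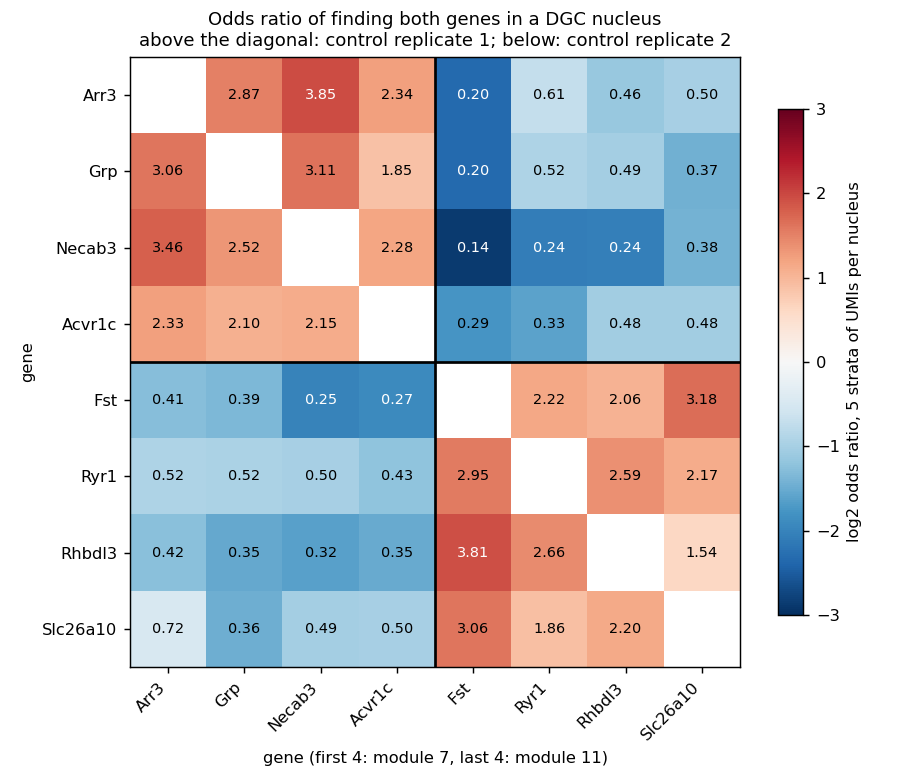
Odds ratios of finding both genes of a pair in a DGC nucleus, within 5 strata of UMIs per nucleus, for control replicate 1 (above the diagonal) and control replicate 2 (below it). The blocks within a module are above 1 (red), and the blocks across modules are below 1 (blue), lowest for Necab3 with Fst in both samples.

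Of the pairs across modules, follistatin with Necab3 had the lowest value in both control samples. Fst and Necab3 were found together in 4 nuclei of control replicate 1, where 22.6 would follow from their frequencies, and in 13 nuclei of control replicate 2, where 39.0 would. The odds ratio of that pair was 0.136 and 0.248. Fst and the activin receptor gene Acvr1c were found together in 13 and 21 nuclei, where 33.9 and 54.9 would follow, with odds ratios of 0.292 and 0.266. The value nearest to 1 was that of Arr3 with Ryr1 in control replicate 1 (0.611) and of Arr3 with Slc26a10 in control replicate 2 (0.720). Within modules, Arr3 and Necab3 had the highest odds ratio of module 7 in both samples (3.86 and 3.46). In module 11 the highest was that of Fst with Slc26a10 in control replicate 1 (3.18) and of Fst with Rhbdl3 in control replicate 2 (3.81).

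The 2 modules were not strictly exclusive in the nuclei. In control replicate 1, 23.5% of DGC nuclei (95% exact interval 21.8 to 25.3) held UMIs of module 7 without module 11, 37.0% (35.0 to 39.0) of module 11 without module 7, 9.68% (8.51 to 10.95) of both and 29.8% (27.99 to 31.7) of neither. In control replicate 2 the shares were 26.1%, 37.1%, 20.6% and 16.2%. Nuclei with both modules numbered 226 where 348 would follow from the frequencies in control replicate 1, and 413 where 540 would in control replicate 2. With each nucleus thinned to 1500 UMIs, which left out no DGC nucleus, nuclei with both fell to 1.63% and 1.40%, and the odds ratio of the modules was 0.377 and 0.310, against 0.323 and 0.296 unthinned. Intervals here and below cover counting error only.

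Free RNA in the droplets can give a UMI of a gene that a nucleus did not express. Oligodendrocyte nuclei, which are not neurons, held a UMI of Acvr1c in 1.29% and 0.486% of nuclei in the 2 control samples. They held Slc26a10 in 0% (0 of 232, which allows up to 1.29%) and 0.194%. Whether oligodendrocytes express none of the 8 genes was not tested. In DGC nuclei the shares were 18.96% and 27.4% for Acvr1c and 28.4% and 33.0% for Slc26a10. Median depths of oligodendrocyte nuclei were 1727 and 2339 UMIs. At 1500 UMIs the DGC shares were 7.71% and 6.43% for Acvr1c, against 0.862% and 0.389% in oligodendrocytes. The sparsest gene, Arr3, was found in 3.90% and 6.13% of DGC nuclei and in 0 of 232 and 1 of 1029 oligodendrocyte nuclei. For Grp the oligodendrocyte shares were 0.862% and 2.92%, against 7.41% and 13.5% of DGC nuclei. The Grp shares at 1500 UMIs were closer, at 0.431% and 1.361% of oligodendrocyte nuclei and 2.997% and 3.587% of DGC nuclei.

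The mutant samples were sparse. In mutant replicate 2, with 463 DGC nuclei, 15 of the 16 pairs across modules were below 1 with a median of 0.483, the exception being Grp with Ryr1 at 1.16, and all 12 pairs within a module were above 1 with a median of 2.47. In mutant replicate 1, with 90 DGC nuclei, 13 of the 16 pairs across modules were below 1 and 9 of the 12 within a module were above 1. There, 7 co-occurrences were counted over the 16 pairs across modules where 15.2 would follow from the frequencies, so single pairs in that sample carry little information. The odds ratio of the 2 modules as a whole was 0.512 and 0.458 in the mutant samples. With nuclei thinned to 1500 UMIs it was 1.10 in mutant replicate 1, from 2 nuclei with both modules, and 0.393 in mutant replicate 2, from 5.

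The pyramidal neurons of the hippocampus, whose nuclei did not enter the choice of the genes, gave other values. In CA1 nuclei (1207 to 2677 per sample) the odds ratio of the 2 modules was above 1 in every sample, at 1.901 and 1.23 in the control samples and 1.28 and 1.40 in the mutant samples. In CA3 nuclei (365 to 1085 per sample) it was below 1 in every sample, at 0.726 and 0.745 in the controls and 0.549 and 0.752 in the mutants. Of the pairs across modules for which at least 5 nuclei with both genes would follow from the frequencies, 9 of 10 and 6 of 10 were above 1 in CA1 of the controls. In CA3 of the controls 3 of 6 and 5 of 8 were above 1. In the mutants 4 of 9 and 6 of 10 were above 1 in CA1, and 2 of 4 and 2 of 7 in CA3. Module 7 UMIs were found in 15.7% to 62.2% of CA1 and CA3 nuclei per sample, and module 11 UMIs in 31.8% to 59.3%. In astrocytes, the other type with over 400 nuclei in both controls, the odds ratio of the modules was 0.499 and 0.762 in the controls and 0 and 0.409 in the mutants, from 8 nuclei with both modules at most. Differences between cell types were not tested.

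Over the 18 cell types that reached 10 nuclei in each of the 4 samples, 4 of the 8 genes were highest in DGCs in the control samples. Slc26a10 had 80.5 and 62.2 UPM in DGC nuclei of the 2 controls and a mean 5.13 times that of the next type, the mossy cells (9.74 and 18.1 UPM). Arr3 had 9.49 and 11.5 UPM, and the next type, inhibitory neurons 12, had 1.71 and 2.38 UPM from 1 and 3 UMIs, where 3 UMIs would be 5.14 and 2.38 UPM. Ryr1 had 44.8 and 44.1 UPM, 1.70 times CA2 (20.5 and 31.9 UPM). None of these 3 ranges overlapped with that of the next type. Fst had 26.6 and 21.2 UPM, and the next type by mean, a cluster named excitatory neurons 19, ranged from 0 to 40.2 UPM, so the order of these types was not settled. The third type for Fst was at 3.88 UPM on average.

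The other 4 genes were not highest in DGCs. Acvr1c ranked second at 52.0 and 52.3 UPM, below the cluster excitatory neurons 10 (62.2 and 74.4 UPM) and above excitatory neurons 7 (16.5 and 45.6 UPM). Grp ranked as number 4 at 17.9 and 21.2 UPM, with ranges that overlapped with those of its neighbours in the order, and its highest type was excitatory neurons 13 at 58.9 and 117.8 UPM. Rhbdl3 ranked as number 5 at 65.5 and 86.4 UPM, below excitatory neurons 13 at 191.6 and 221.5 UPM, with a range that overlapped with that of CA1 (73.2 and 87.9 UPM). Necab3 ranked as number 8 at 31.9 and 35.9 UPM, below excitatory neurons 13 at 104.8 and 117.7 UPM and overlapping with astrocytes (29.6 and 39.3 UPM). Genes with a higher mean level in another type were thus Grp, Necab3 and Acvr1c of module 7 and Rhbdl3 of module 11.

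**Figure D2:**
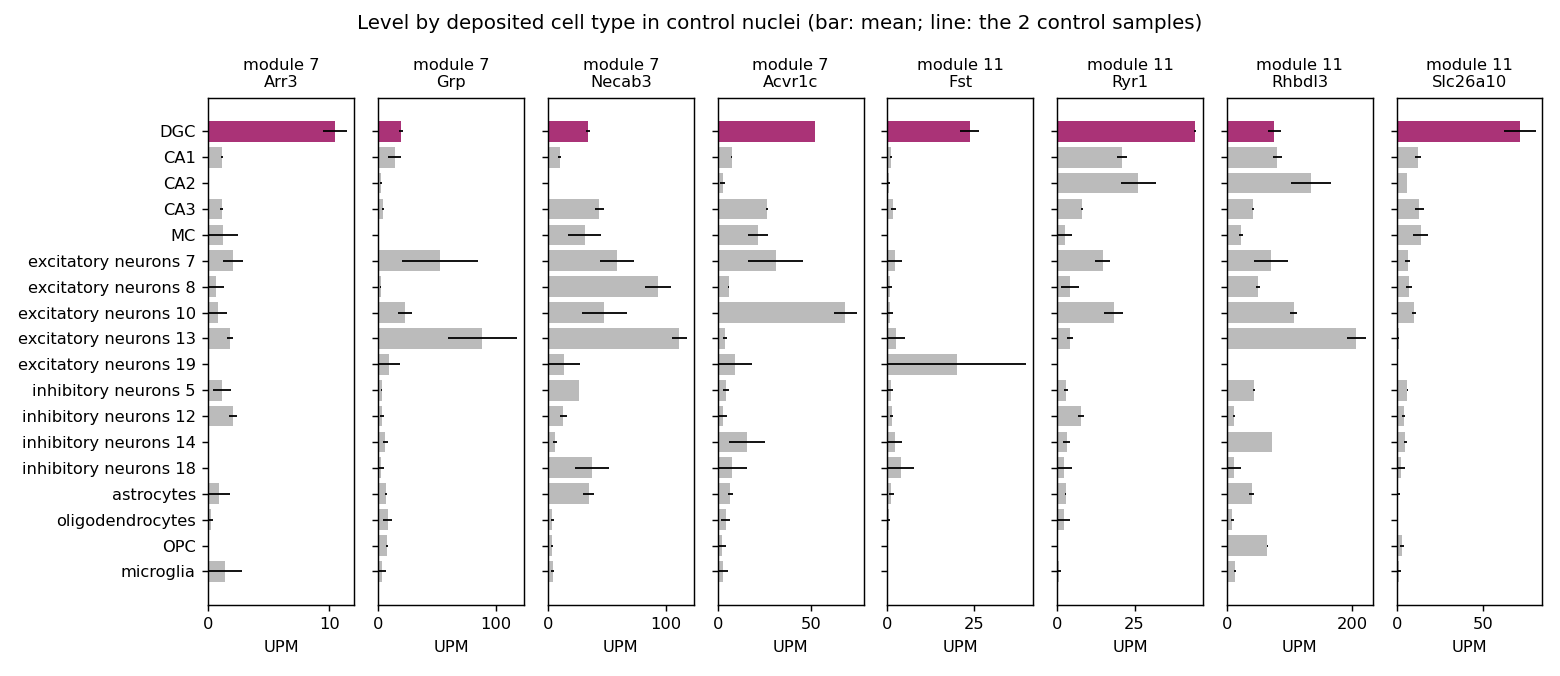
Level of each gene (UPM, horizontal axis, a separate scale per gene) in 18 deposited cell types of the control samples, as the mean (bar) with the 2 control samples at the ends of the line. DGCs (purple) are the highest type for Arr3, Fst, Ryr1 and Slc26a10, and excitatory neurons 13 are the highest for Grp, Necab3 and Rhbdl3.

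Other genes of DGCs were split between the modules in the same nuclei, again as a description, since the nuclei are those that chose the members. A gene is said to lie on the side of a module where its odds ratio was above 1 with that module and below 1 with the other in both control samples. Of 9004 genes found in at least 5% of DGC nuclei of both controls, 39.1% lay on a side, 1712 with module 7 and 1805 with module 11, so that such a split is common among genes. Of the 5 granule cell genes found this often, 2 lay with module 7 and 3 with module 11. Plk5, a polo-like kinase of neurons, had odds ratios of 2.31 and 2.12 with module 7 and 0.394 and 0.383 with module 11 in the 2 control samples. C1ql2, a secreted synaptic protein of mossy fibers, had 1.98 and 2.10 with module 7 and 0.580 and 0.583 with module 11. Calb1, the calcium buffer calbindin, had 0.561 and 0.509 with module 7 and 1.67 and 1.64 with module 11. Dsp, the desmosomal protein desmoplakin, had 0.588 and 0.581 with module 7 and 1.85 and 1.96 with module 11. Prox1, the transcription factor that defines granule cells, was found in 67.5% and 81.7% of DGC nuclei and had 0.640 and 0.701 with module 7 and 1.38 and 1.66 with module 11.

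Of 12 activin pathway genes found this often, the members left out, 5 lay with module 7 (Smad3, Acvr1, Inhba, Inha and Smad4), 3 with module 11 (Smad7, Acvr2a and Acvr1b) and 4 with neither, beside the 39.1% of all genes on a side. Smad3, which carries the activin signal to the nucleus, was found in 47.5% and 66.2% of DGC nuclei and had odds ratios of 1.86 and 2.17 with module 7 and 0.482 and 0.366 with module 11. Smad7, an inhibitory Smad, lay opposite, at 0.600 and 0.571 with module 7 and 1.85 and 1.78 with module 11. Acvr2a, a type II activin receptor, also lay with module 11 (1.79 and 1.64, against 0.700 and 0.585 with module 7), whereas Acvr1, a type I receptor, lay with module 7 (1.45 and 1.52, against 0.682 and 0.772 with module 11). The ligand gene Inhba, which encodes the activin A subunit, had 1.29 and 1.35 with module 7 and 0.866 and 0.887 with module 11. Inha had 1.16 and 1.26 with module 7 and 0.894 and 0.732 with module 11, and Acvr1b had 0.738 and 0.769 with module 7 and 1.40 and 1.18 with module 11. Smad2, Smad4, Tgfbr1, Tgfbr3 and Bambi had values between 0.826 and 1.19 with both modules.

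Among calcium release channels, Itpr1, the inositol trisphosphate receptor, lay with Ryr1 in module 11, at 2.22 and 2.203, and at 0.506 and 0.447 with module 7. Ryr3 was near 1 with both (1.05 and 1.23 with module 7, 1.10 and 0.829 with module 11). Of 6 genes of immature granule cells, 5 were in the table of nuclei, and only Sox11 and Sox4 were found in at least 5% of DGC nuclei of both controls. Dcx, found in 4.54% and 5.83% of DGC nuclei, had 1.40 and 1.88 with module 7 and 0.517 and 0.439 with module 11, and Sox11 had 1.25 and 1.48 with module 7 and 0.676 and 0.698 with module 11. Sox4 lay on neither side, at 1.38 and 1.27 with module 7 and 1.08 and 0.883 with module 11. Lct, a gene of dorsal DGCs, had 0.817 and 0.765 with module 7 and 1.41 and 1.38 with module 11. The immediate early gene Junb lay near 1 with both modules, at 1.14 and 0.896 with module 7 and 1.146 and 1.19 with module 11.

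**Figure D3:**
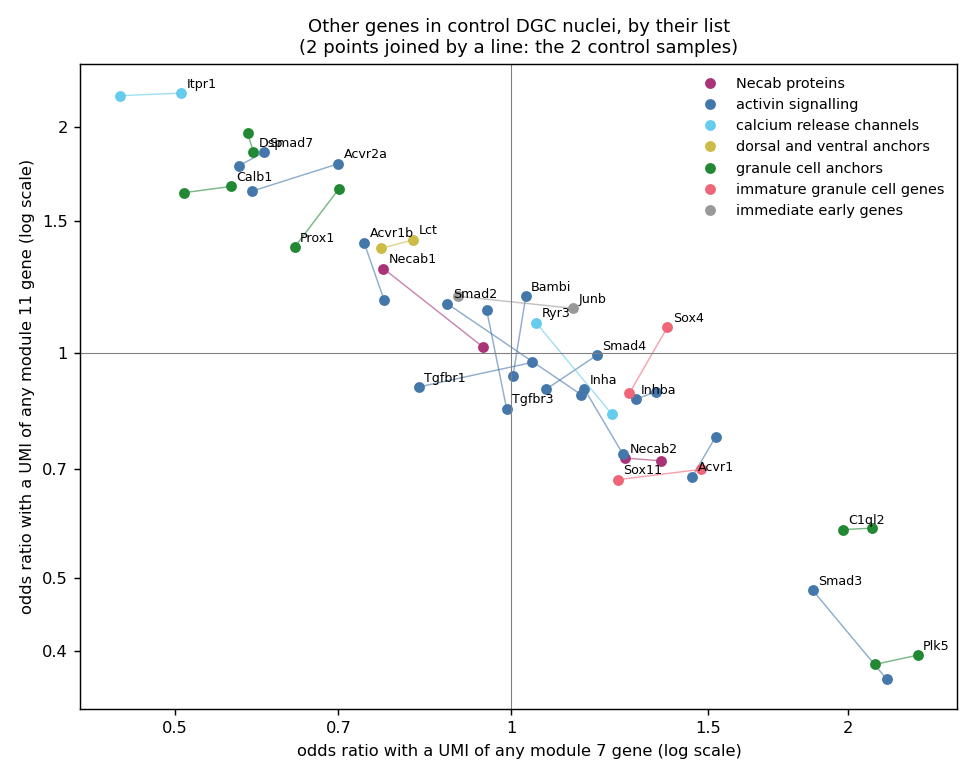
Odds ratio of 25 genes, each found in at least 5% of DGC nuclei of both control samples, with a UMI of any module 7 gene (horizontal, log scale) and of any module 11 gene (vertical, log scale). Each gene is 2 joined points, 1 per control sample, coloured by its list. Plk5, Smad3 and C1ql2 sit at the lower right, and Itpr1, Dsp, Smad7 and Calb1 at the upper left.

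The genes most like each module were ranked by the partial correlation, given the depth of a nucleus, of their log level with the mean of the 4 members, over 2336 and 2007 control nuclei, among 9054 genes found in at least 5% of nuclei of both controls. For module 7 they were Nrxn3, Sorcs3, Gsg1l, Snhg11, Dgkb, Sntb2, Brinp1, Adgrl3, Sgcz and Mapk4. The values were 0.316 and 0.453 for Nrxn3 (a presynaptic adhesion protein), 0.306 and 0.408 for Sorcs3 (a sorting receptor) and 0.243 and 0.339 for Mapk4, number 10. For module 11 they were Ahcyl2, Lrp1b, Slc4a4, Hectd2, Inf2, Rapgef5, Nr3c2, Egfem1, Camk2a and Col23a1. The values were 0.379 and 0.444 for Ahcyl2, 0.313 and 0.421 for Slc4a4 (a sodium bicarbonate cotransporter), 0.286 and 0.342 for Nr3c2 (the mineralocorticoid receptor) and 0.275 and 0.310 for Col23a1, number 10. All 20 genes had a negative value with the other module in both control samples. They were ranked on these same control nuclei, where the modules are opposed, so that sign is a description and no test. In mutant replicate 2 all 20 had a positive value with their own module, and in mutant replicate 1 (90 nuclei) 19 of 20, the exception being Dgkb at -0.01. The share of all 9054 ranked genes with such signs was not computed. The nuclei of a sample share a library, and genes are not independent replicates.

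Levels of the module 7 genes in DGC nuclei were below those of the controls in both mutant samples, and 1 of the 4, Necab3, passed the test given below. Acvr1c was at 52.0 and 52.3 UPM in the controls and 26.6 and 35.0 UPM in the mutants. Necab3 was at 31.9 and 35.9 UPM in the controls and 19.3 and 13.1 UPM in the mutants. Grp was at 17.9 and 21.2 UPM in the controls and 14.5 and 12.8 UPM in the mutants. Arr3 was at 9.49 and 11.5 UPM in the controls and 4.83 and 6.42 UPM in the mutants, the first of these from 2 UMIs in mutant replicate 1, where 3 UMIs would be 7.24 UPM. For each of the 4 genes, both mutant samples lay below both control samples.

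The module 11 genes were more mixed. Slc26a10 was at 80.5 and 62.2 UPM in the controls and 48.3 and 34.7 UPM in the mutants, and Ryr1 at 44.8 and 44.1 UPM in the controls and 36.2 and 35.6 UPM in the mutants, again with no overlap. Fst was at 26.6 and 21.2 UPM in the controls and 21.7 and 11.7 UPM in the mutants, which overlapped. Rhbdl3 was at 65.5 and 86.4 UPM in the controls and 50.7 and 110.9 UPM in the mutants, so that the mutant samples lay on either side of the controls. In all, 6 of the 8 genes had both mutant samples below both controls, as had 26.1% of the 15003 genes tested.

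**Figure D4:**
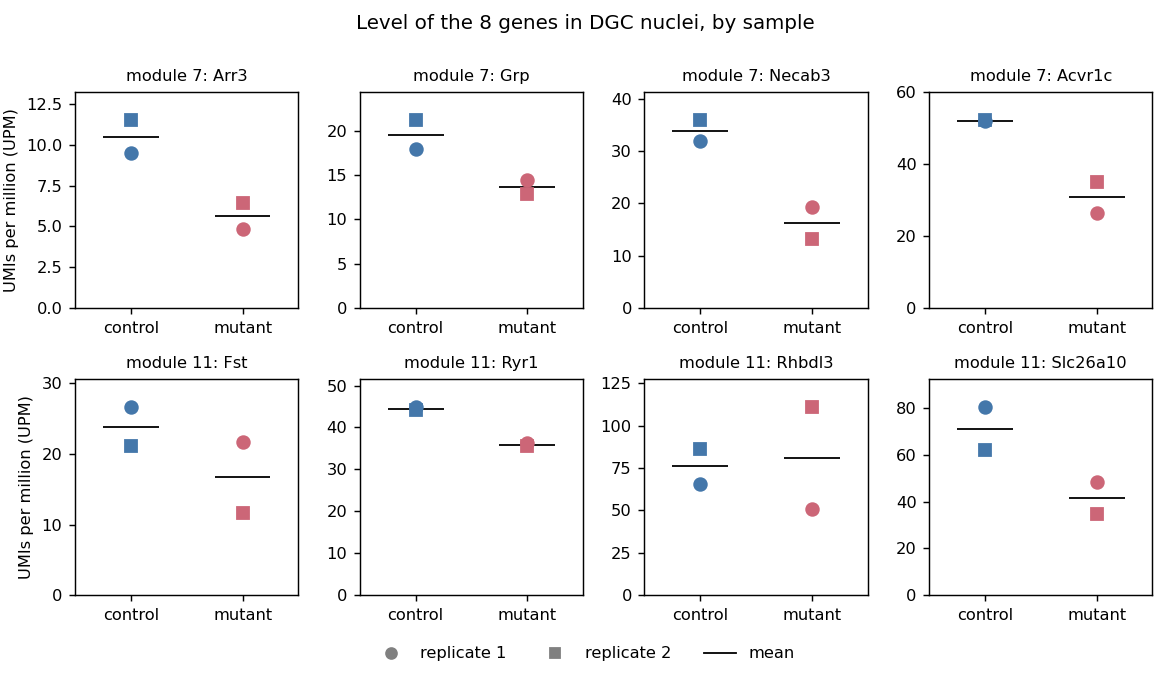
Level of the 8 genes in DGC nuclei (UPM, vertical axis from 0, a separate scale per gene) for the 2 control and 2 mutant samples, with the mean of each genotype as a line. The 4 module 7 genes, Ryr1 and Slc26a10 are lower in both mutants, and Rhbdl3 spans the controls.

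By edgeR's quasi-likelihood test on UMIs summed over DGC nuclei per sample, with thresholds of a fold change (FC) above 2 and a Benjamini-Hochberg adjusted p (FDR) below 0.05 over all genes tested, 1 of the 8 genes was called, beside 1.47% of all genes in either direction. Necab3 was 2.36-fold lower (log2 difference -1.24 ± 0.26 SE, FDR = 0.0475), close to the threshold. By edgeR, Slc26a10 was 1.86-fold lower (log2 -0.89 ± 0.23, FDR = 0.0940), Acvr1c 1.56-fold lower (log2 -0.64 ± 0.20, FDR = 0.171) and Fst 1.75-fold lower (log2 -0.80 ± 0.31, FDR = 0.245), none past the threshold. At an unadjusted p below 0.05 these 4 were lower, against 8.42% of all genes. The median log2 difference was -0.70 over the 4 module 7 genes and -0.55 over the 4 module 11 genes, beside -0.01 over all genes tested. Over the 6 known granule cell genes it was -0.61 in the same nuclei, with 5 of the 6 negative and 1 called lower. A fall of this size was thus not particular to the modules. The Necab3 call was lost without mutant replicate 1 or mutant replicate 2 (FDR = 0.129 and 0.533 by edgeR) and by DESeq2 (FDR = 0.129). Where 1 sample of a genotype is left, the spread comes from the other genotype alone and the lone sample is assumed to vary like it, here and in the bulk fits below. The log2 difference in these fits ran from -1.36 to -0.86.

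Other genes moved with genotype in the same nuclei. Lct, known from dorsal DGCs, was 2.69-fold lower (log2 -1.43 ± 0.27, FDR = 0.0364), and Trhr, known from ventral DGCs, was higher in the mutants (log2 3.04 ± 0.22, FDR = 0.00164), both by edgeR. C1ql2 was 2.96-fold lower (FDR = 0.0242 by edgeR) while Prox1 (log2 0.18 ± 0.15, FDR = 0.620 by edgeR) did not pass the test. Among the paralogs, Necab1 was higher in the mutants (log2 1.25 ± 0.22, FDR = 0.0262), by edgeR. Of the inhibitory neuron markers given here, Erbb4 was higher in DGC nuclei of both mutants (24.0 and 34.7 UPM in the controls, 128.0 and 55.2 UPM in the mutants), Gad2 was lower in both (6.68 and 6.64 UPM, then 4.83 and 4.09 UPM), and Gad1 overlapped between genotypes (39.3 and 37.4 UPM, then 38.6 and 29.5 UPM). The 4 markers of microglia summed to 64.2 and 77.9 UPM in the controls and 96.6 and 102 UPM in the mutants, with none at 0. Among them Cx3cr1 and P2ry12 were higher in both mutants, while Csf1r and C1qa overlapped between genotypes (log2 0.03 and -0.27). The astrocyte markers summed to 66.6 and 70.3 UPM in the controls and 84.5 and 77.7 UPM in the mutants (Aqp4 and Gja1 at 0 in mutant replicate 1). Of these markers only Slc1a3 was higher in both mutants (56.2 and 60.9 CPM in the controls, 78.9 and 72.5 CPM in the mutants). The other 3 had negative log2 differences, and Aqp4 and Gja1 were lower in both mutants, so the list did not move as 1. The part of the dorsal and ventral genes and of these markers in the differences above was not tested.

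The balance of the modules was also compared. Of the UMIs of the 8 genes, module 11 gave 66.1% and 63.9% in the control samples and 70.7% and 74.1% in the mutant samples. Mutant replicate 1 held only 27 UMIs of module 7 and 65 of module 11. The mutant mean was higher by 7.36 percentage points, and the samples did not overlap. A two-sided exact permutation test over the 4 samples gave p = 0.333 (n = 2 per genotype), the smallest that 2 against 2 samples can give. Without Acvr1c and Rhbdl3, the members with most UMIs in each module, the difference was 4.06 points and the samples overlapped (71.9% and 65.0% in controls, 73.3% and 71.7% in mutants). With each nucleus at 1500 UMIs, nuclei with module 7 alone made up 13.6% and 13.9% of control DGC nuclei and 6.67% and 8.42% of mutant DGC nuclei. Nuclei with module 11 alone made up 20.5% and 20.8% in the controls and 21.1% and 22.2% in the mutants.

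Outside DGCs, no member was called in any of the 17 other cell types (edgeR, FC above 2 and FDR below 0.05), beside 0.0754% of all genes summed over types, and DESeq2 gave 0 as well. Of 136 combinations of a gene and a type, 50 passed the filter on low counts, and the smallest FDR among them was 0.256. At an unadjusted p below 0.05 there were 7 of the 50 (14%), 5 lower and 2 higher in the mutants, against 8.70% of all genes. These 7 were Acvr1c, Fst and Slc26a10 in CA1, Necab3 and Rhbdl3 in CA3, and Grp and Acvr1c in excitatory neurons 10. Acvr1c was higher in the mutants in CA1 (7.27 and 7.72 CPM in the controls, 14.2 and 10.8 CPM in the mutants) and lower in excitatory neurons 10 (63.1 and 74.1 CPM in the controls, 35.8 and 31.6 CPM in the mutants).

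In bulk RNAseq of whole hippocampus, levels of different genes can be set side by side as transcripts-per-million (TPM), which are scaled by transcript length. In the control libraries Necab3 (30.5 and 25.8 TPM) and Grp (18.4 and 20.2 TPM) were the highest of the 8, followed by Slc26a10 (14.4 and 13.8 TPM) and Rhbdl3 (12.3 and 12.3 TPM). Ryr1 (5.52 and 5.31 TPM), Acvr1c (4.40 and 4.56 TPM) and Fst (4.45 and 3.77 TPM) were lower, the last pair overlapping, and Arr3 (1.49 and 1.06 TPM) was lowest. DGC nuclei were 36.1% and 27.9% of nuclei in the control snRNAseq samples and 1.70% and 4.43% in the mutant samples. In bulk, fewer DGCs and less RNA per DGC cannot be told apart.

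Fst and Slc26a10 fell most. Slc26a10 was at 3.28 and 3.57 TPM in the mutant libraries, and Fst at 0.66 and 0.94 TPM. Both were called at the thresholds used for bulk (FC above 3, FDR below 0.05), making 2 of the 8 genes, beside 0.198% of the 20687 genes tested that were called lower. By edgeR, Fst was 4.83-fold lower (log2 -2.27 ± 0.23, FDR = 0.0275) and Slc26a10 3.89-fold lower (log2 -1.96 ± 0.12, FDR = 0.0135). The replicate number goes with the levels of Xist and Ddx3y in both genotypes, and with the number as a block Fst was not called (log2 -2.28, FDR = 0.0628 by edgeR) while Slc26a10 was (FDR = 0.0420). Ryr1, at 2.71 and 2.59 TPM in the mutants, was 1.92-fold lower (log2 -0.94 ± 0.08, FDR = 0.0227 by edgeR), short of the fold threshold. Without control replicate 1 or control replicate 2 no gene of the table was called and the FDR of these 3 genes was 0.153 to 0.234 by edgeR, while the log2 difference was -2.15 and -2.39 for Fst, -1.93 and -2.00 for Slc26a10 and -0.91 and -0.98 for Ryr1.

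None of the module 7 genes passed the test in bulk. Acvr1c was at 2.78 and 1.93 TPM in the mutants (log2 -0.83 ± 0.21, FDR = 0.135 by edgeR), Necab3 at 21.2 and 18.7 TPM (log2 -0.51 ± 0.12, FDR = 0.119 by edgeR) and Grp at 14.6 and 11.9 TPM (log2 -0.43 ± 0.18, FDR = 0.276 by edgeR). Arr3, which lies on the X chromosome, was at 0.27 and 0.93 TPM, from 8 and 45 expected counts (log2 -0.82 ± 0.66, FDR = 0.570 by edgeR). Rhbdl3 was at 12.3 and 11.9 TPM in the mutants (log2 0.04 ± 0.10, FDR = 0.881 by edgeR). All members but Rhbdl3, 7 of 8, had both mutant libraries below both controls in CPM, as had 25.4% of all genes tested. At an unadjusted p below 0.05, 5 of the 8 were lower, against 9.94% of all genes. The median log2 difference was -0.66 over module 7 and -1.45 over module 11, beside 0.01 over all genes tested.

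**Figure D5:**
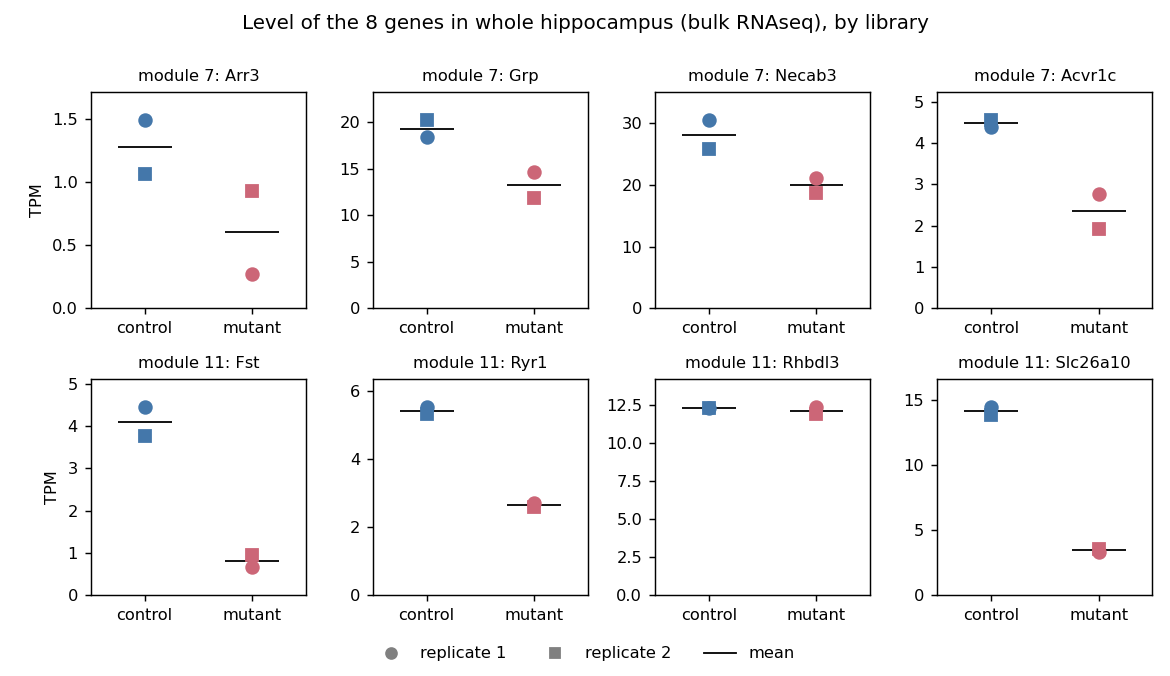
Level of the 8 genes in bulk RNAseq of whole hippocampus (TPM, vertical axis from 0, a separate scale per gene) for 2 control and 2 mutant libraries, with the mean of each genotype as a line. Slc26a10 and Fst are lowest in the mutants relative to the controls, and the Rhbdl3 points of both genotypes lie together.

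The 6 granule cell genes fell by 2.10-fold (Calb1) to 10.2-fold (Htra4) in the same libraries, with summed levels of 453 and 461 CPM in the controls and 116 and 101 CPM in the mutants. The bulk differences of Fst and Slc26a10 lie within that range and those of Ryr1, Acvr1c, Arr3, Necab3, Grp and Rhbdl3 below it. All 4 choroid plexus markers were higher in both mutant libraries, with summed levels of 138 and 78.6 CPM in the controls and 724 and 5357 CPM in the mutants. The part of that tissue in the member values was not tested.

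Of 22 activin pathway genes tested in bulk, the members Fst and Acvr1c among them, 1 was called, beside 0.198% of all genes called lower. An FDR below 0.05 was reached by 4, all lower in the mutants, and the share of all genes at that FDR alone was not computed. At an unadjusted p below 0.05, 9 were lower, beside 9.94% of all genes, and 2 higher, beside 1832 of the 20687 genes tested. The 4 with an FDR below 0.05 were Fst, Acvr2a (log2 -0.82 ± 0.06, FDR = 0.0206), Smad3 (log2 -0.90 ± 0.06, FDR = 0.0185) and Bambi, a pseudoreceptor (log2 -1.26 ± 0.14, FDR = 0.0348), by edgeR. The median log2 difference over the 22 was -0.25. In DGC nuclei 17 of the 22 passed the filter and none was called by edgeR. At an unadjusted p below 0.05, 4 were lower, beside 8.42% of all genes, and 1 higher, beside 1140 of the 15003 genes tested. The 4 lower were the members Acvr1c and Fst, already given above, with Bambi and Tgfbr1. The 1 higher was Acvr2a (log2 0.72 ± 0.17, FDR = 0.0675 by edgeR), which was lower in bulk, and Smad3 did not pass the test in DGC nuclei (log2 -0.01 ± 0.24, FDR = 0.997 by edgeR).

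The genes lie apart in the genome (build mm10, GRCm38, GENCODE vM21). All are protein-coding. Arr3 lies at chrX:100605497-100618493, Necab3 at chr2:154544399-154558890, Acvr1c at chr2:58267453-58357895, Fst at chr13:114452290-114458951, Ryr1 at chr7:29003344-29125179, Rhbdl3 at chr11:80300912-80355955, Slc26a10 at chr10:127171393-127180645 and Grp at chr18:65872820-65886596. Only Necab3 and Acvr1c share a chromosome. Slc26a10 overlaps B4galnt1 on the opposite strand, and Necab3 overlaps 1700003F12Rik and Actl10 on the opposite strand. Antisense transcripts are annotated over Grp, Acvr1c, Fst and Ryr1, and AC152076.4 spans the whole of Grp. Library construction for bulk RNAseq kept the strand, but whether the counting used it is not given in the sources used here, so these 6 genes are less certain than Arr3 and Rhbdl3, which no annotated gene overlaps.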

How the data were processed

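Bulk RNAseq was done on 4 libraries and snRNAseq on 4 samples. For bulk, the authors made expected counts and TPM per gene with RSEM 1.3.0 and Bowtie2 2.2.9 (mm10) and deposited a matrix in which expected counts are divided by a size factor per library (the deposited normalized signal). For snRNAseq, the deposited counts are UMIs per gene and nucleus, from 10x 3′ v3 libraries mapped with Cell Ranger 3.1.0 to an mm10 pre-mRNA index, and cell types are those the authors assigned. Doublets were not called here.

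Members and gene lists were chosen with earlier results of these data known. Named genes were the 8 members, the genes of 26 lists fixed by role, and the 10 genes most like each module. Co-occurrence in CA1, CA3 and astrocyte nuclei, the count of all genes on the side of a module and the printing of 4 promoters were chosen after values were seen.

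Within each sample, UMIs of a cell type were added up, for types that reached 10 nuclei in each of the 4 samples. Genotypes were compared with edgeR 4.0.16 (R 4.3.3; glmQLFit and glmQLFTest, filterByExpr, TMM, no block) on these sums and on expected counts rounded to whole numbers, with Benjamini-Hochberg adjustment over all genes tested and SE taken as the log2 difference over the root of F. All 8 members passed the filter in bulk and in DGC nuclei. The test was checked on simulated counts. Alternatives were DESeq2 1.42.0, RLE scaling, no filter, a replicate block, limma 3.58.1 on log2(value + 1) of the deposited matrix, other fold thresholds, DGC nuclei thinned or without the 5% with most UMIs, and leaving out each sample. A fit on a subset of DGC nuclei chosen by marker UMIs, and the summed inhibitory neuron and oligodendrocyte markers, are not reported here. Odds ratios are Mantel-Haenszel over 5 strata of UMIs per nucleus, share intervals are exact (Clopper-Pearson, 95%), and a count of 0 allows a share of 3 over the nuclei. Nothing states that mice of a group were independent litters, so p-values measure the spread between these samples.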

Additional observations from a re-analysis of the deposited data

Results flagged for a closer look

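Groups of 2 samples allow no test for an outlying sample. Among combinations of a gene and a cell type that passed the filter on low counts, 3 genes had both mutant samples below both controls in 1 or more cell types and above them in others, and the difference between cell types was not tested. Combinations with fewer counts are not included. Acvr1c had log2 differences of -0.64 in DGCs and -1.03 in excitatory neurons 10, and of 0.72 in CA1 and 0.15 in CA3. Ryr1 had -0.30 in DGCs, and 0.48 in CA3 and 0.34 in inhibitory neurons 5. Rhbdl3 had -0.44 in astrocytes, -0.39 in excitatory neurons 10, -0.47 in excitatory neurons 8, -0.10 in inhibitory neurons 14 and -0.38 in OPC, and 0.43 in CA3 and 0.78 in mossy cells. None of these values passed an FDR of 0.05 by edgeR. With 2 against 2 samples such an order is common, as 26.1% of genes in DGC nuclei had both mutant samples below both controls.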

How the results depend on the processing

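The count of members called in bulk stayed at 2 with RLE scaling, without the filter, with DESeq2, with limma on the authors' matrix and at FC above 2. It was 1 with the replicate block, where Fst had an FDR of 0.0628, and 0 to 2 when 1 library was left out. In DGC nuclei the count stayed at 1 with RLE scaling, without the filter, with the replicate block, without the 5% of nuclei with most UMIs and at FC above 1.5. It was 0 with DESeq2 and 0 to 2 when 1 sample was left out. In other cell types the count was 0 under each of these alternatives that was run there, the replicate block included. Replicate numbers are shared by the genotypes, and in bulk the number goes with Xist and Ddx3y levels, so the block there also takes out that difference. No source says that a number marks a litter or a day, and the deviations of replicate 1 from replicate 2 correlated between genotypes at 0.021 in bulk and 0.163 in DGC nuclei (across genes). With the block, Acvr1c and Slc26a10 also had an FDR below 0.05 in DGC nuclei (0.0224 and 0.00115).

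Over all genes, calls in bulk were 41 lower and 4 higher, against 112 and 201 without the filter, 70 and 79 with DESeq2, 24 and 2 with the block and 0 and 0 without either control library. In DGC nuclei they were 96 and 124, against 261 and 295 without the filter, 261 and 308 with the block, 1 and 15 without mutant replicate 1 and 0 and 0 without mutant replicate 2. The cause was not tested. Rhbdl3 changed sign in 1 alternative of each kind, to -0.047 in bulk without mutant replicate 1 (up to 0.11 without other libraries) and to -0.63 in DGC nuclei without mutant replicate 2 (up to 0.55 without other samples). In DGC nuclei the median of all genes was -0.01, 0.10 with DESeq2 and -0.13 without mutant replicate 2. The other 7 members kept their sign in every alternative.

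The mean over the controls of the median odds ratio across modules was 0.392, and 0.460 with nuclei thinned to 1500 UMIs. Within a module it was 2.45, and 2.96 with 1 stratum of UMIs. The difference in the module 11 share kept its direction in every alternative, from 4.06 to 12.1 percentage points, and from 5.63 to 9.09 when 1 sample was left out. The number of DGC nuclei (90) limits mutant replicate 1 most, with 27 UMIs of module 7 and 65 of module 11.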
